A study of Mus musculus with 8 samples.

Results

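Genes of fat cells and of fatty acid synthesis were followed in whole pancreas of mice aged 3 weeks. The 7 genes were chosen by name, with earlier results of these data known, as Adipoq, Cfd, Fabp4, Lpl, Scd1, Fasn and Acly. Every probe set whose annotation gave 1 of these symbols was taken. This found 9 of the 12422 probe sets measured, for 6 of the 7 genes and of 8251 genes named by a single symbol. Scd1 had 3 probe sets, Lpl had 2 and the others 1 each, and no probe set carried the symbol Cfd, so this gene, which encodes the protease adipsin, was not analysed here.

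The data were 8 Affymetrix arrays of pancreas RNA, with 4 groups of 2 arrays, named here as labelled. NOD is an inbred strain that develops autoimmune diabetes. The scid mutation of Prkdc, present in NOD.scid, blocks the formation of T cells and B cells. BDC2.5 is a T cell receptor transgene from a CD4 clone directed at islets, carried by BDC2.5/NOD alone and by BDC2.5/NOD.scid together with the mutation. All groups share the NOD background, and the labels name no agent. RNA was prepared 2 times, each time from 6 animals, and pooled. The sources used here do not say if the arrays of a pair stand for separate pools, so p-values reflect array-to-array spread only, and this may be technical. The design asks how the transgene changes the pancreas with and without other lymphocytes, and how the mutation changes it with and without the transgene.

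Fat cells store triglyceride and secrete hormones such as adiponectin, and in the pancreas of a mouse they lie mainly in the tissue around and between the lobules. Lipoprotein lipase releases fatty acids from circulating particles, and fatty acid binding proteins carry them inside the cell. New fatty acids are made from citrate, which ATP citrate lyase splits to acetyl-CoA. Later steps, which include fatty acid synthase, lead to palmitate, and stearoyl-CoA desaturase makes fatty acids unsaturated. Transcription of these enzymes, and of those that make cholesterol, is driven by the sterol regulatory element binding proteins, and acinar cells, islets and macrophages use the pathway too.

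Values were on a scale taken to be log2, where a difference of 1 is a doubling. A group difference is the difference of mean log2 values, was tested with limma and was called where the p-value adjusted over all probe sets lay below 0.05. Levels of different probe sets were not set against each other. The 4 pairwise comparisons share groups: NOD enters both the transgene effect in NOD and the scid effect without the transgene, and BDC2.5/NOD enters both the transgene effect in NOD and the scid effect with it. The 7 measured acinar markers, which define the labelled tissue, had mean log2 values of 11.66 to 11.81 on every array. Prkdc read 3.37 to 3.70, and as scid is a point mutation this does not check the labels. Paired arrays correlated at 0.9912 to 0.9961. A split that the groups do not explain was seen in the middle beta-actin control, which lay at 9.26 or above on 3 arrays (the first of NOD, the first of NOD.scid and the second of BDC2.5/NOD.scid) and at 7.74 or below on the other 5.

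Adipoq (2.14-fold) and Lpl (2.11-fold on its brighter probe set) were lower and Fasn (1.69-fold) was higher in BDC2.5/NOD than in NOD, with 2 arrays a group. Scd1 was lower in both scid groups than in their counterparts on 2 of its 3 probe sets. Fabp4 and Acly passed in no comparison. With the transgene in NOD, 6 of the 9 probe sets were called, 2 higher and 4 lower, against 7.97% of all probe sets (3.91% higher and 4.06% lower). In NOD.scid the transgene gave 1 call of 9, lower, against 6.4% of all (2.37% higher and 4.03% lower). For scid without the transgene 3 of 9 were called, all lower, against 2.35% of all (0.741% higher and 1.61% lower). For scid with the transgene 4 of 9 were called, all lower, against 8.35% (2.99% higher and 5.35% lower). The difference between the transgene effects in NOD.scid and in NOD was called for 3 of 9, 1 of them above 0 and 2 below, against 4.72% of all (2.22% above and 2.5% below). Several of these probe sets belong to the same gene, so they are not independent. The members and the lists used below were chosen with earlier results of these data known, so their shares are descriptions and not tests. The median difference of the 9 probe sets was -0.36 with the transgene in NOD, -0.30 with it in NOD.scid, -0.27 for scid without the transgene and -0.29 for scid with it, while that of all probe sets lay between -0.01 and 0.03.

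**Figure D1:**
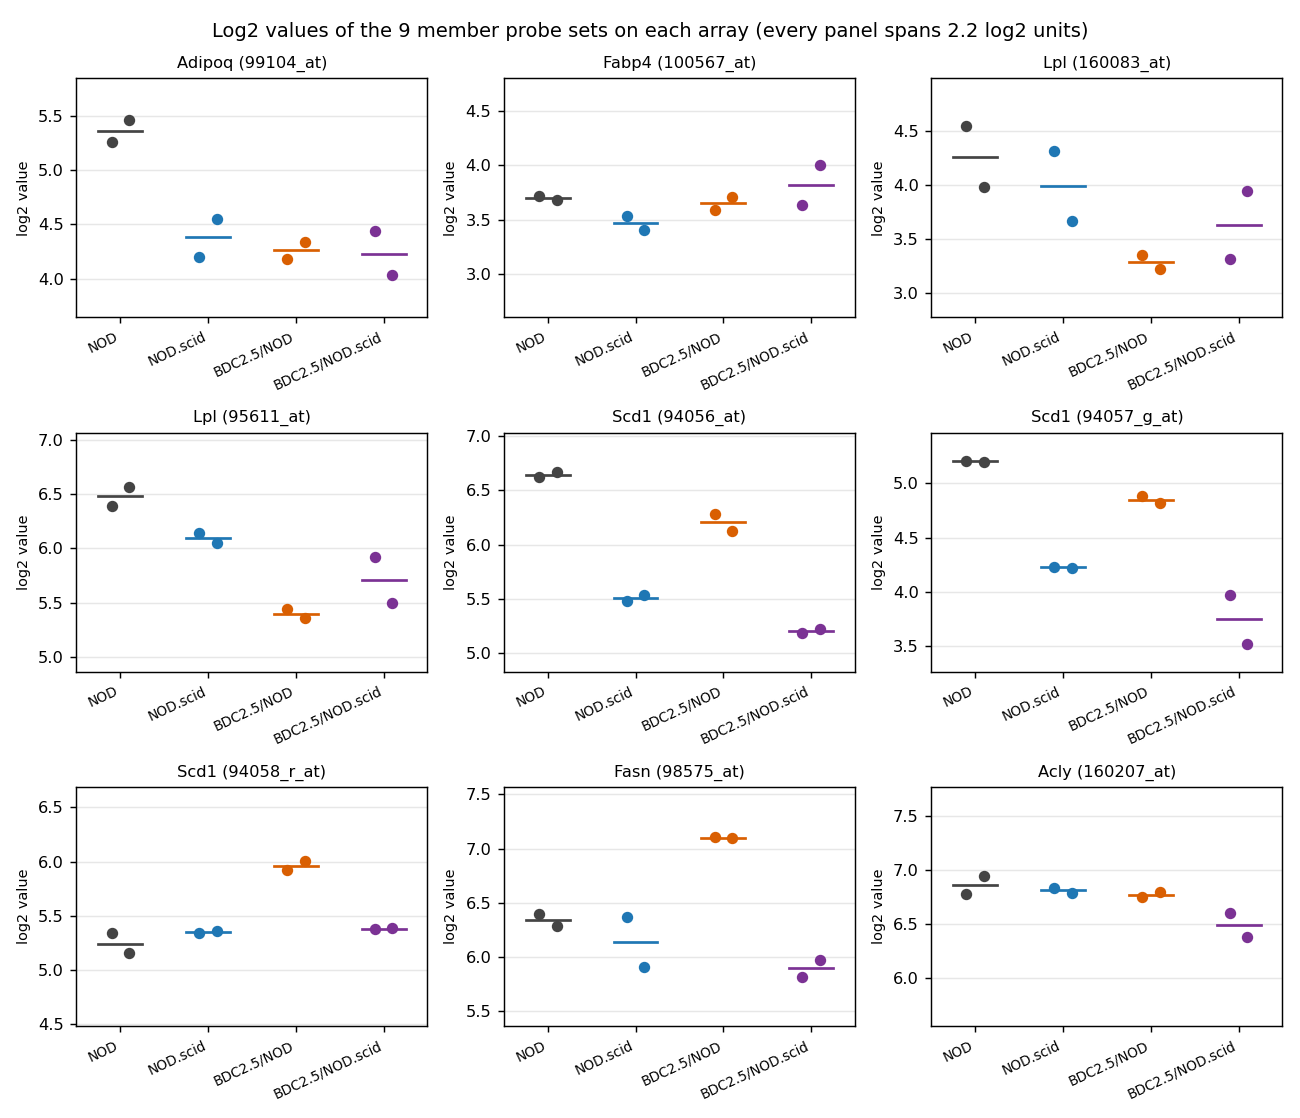
Log2 values of the 9 probe sets, 1 panel each, with 1 point per array, a line at the mean of each group of 2 arrays, and the same span of log2 units on every vertical axis. NOD stands above the other groups for Adipoq, at 5.26 and 5.46, and BDC2.5/NOD above them for Fasn, at 7.11 and 7.10.

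Adipoq encodes adiponectin, a hormone secreted by mature fat cells. Its log2 values were 5.26 and 5.46 for NOD, 4.18 and 4.34 for BDC2.5/NOD, 4.44 and 4.03 for BDC2.5/NOD.scid and 4.20 and 4.55 for NOD.scid. Both NOD arrays lay above all of the others, and the other 3 groups overlapped. The difference of BDC2.5/NOD from NOD was -1.1 (SE 0.150, 2.14-fold lower, limma adjusted p = 0.000893). The difference of NOD.scid from NOD was -0.98 (SE 0.150, 1.98-fold lower, limma adjusted p = 0.00455). Both rest on the same 2 NOD arrays, and the second call was lost without NOD replicate 2 (limma adjusted p = 0.061). Within NOD.scid the transgene gave -0.14, with a 95% interval of -0.47 to 0.18, and scid with the transgene gave -0.03, with an interval of -0.36 to 0.30. The transgene effects in NOD.scid and NOD differed by 0.95 (SE 0.213, limma adjusted p = 0.0239). That call was lost without either BDC2.5/NOD array (0.143 and 0.0776), without BDC2.5/NOD.scid replicate 1 (0.0716), without NOD.scid replicate 1 (0.0724) and without NOD replicate 2 (0.0848). Arrays of low actin control alone gave -1.20 for the transgene in NOD, from 2 arrays against 1, and no BDC2.5/NOD array was high. For scid without the transgene, low arrays gave -0.91 and high arrays -1.06, each from 1 array against 1. In bulk tissue, fewer cells of a type and less RNA per cell cannot be told apart.

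Lpl encodes lipoprotein lipase, which fat cells, muscle and macrophages make and secrete. The brighter of its 2 probe sets read 6.39 and 6.57 for NOD, 5.44 and 5.36 for BDC2.5/NOD, 5.92 and 5.50 for BDC2.5/NOD.scid and 6.14 and 6.05 for NOD.scid. From the highest, the order was NOD, NOD.scid, BDC2.5/NOD.scid and BDC2.5/NOD, with no overlap. The BDC2.5/NOD arrays lay 1.08 below NOD (difference -1.08, SE 0.128, 2.11-fold, limma adjusted p = 0.00032). Neighbours in this order did not pass, with -0.38 for scid without the transgene (95% interval -0.66 to -0.10, limma adjusted p = 0.179), -0.39 for the transgene in NOD.scid (-0.67 to -0.11, 0.112) and 0.31 for scid with the transgene (0.03 to 0.59, 0.19). With the actin split as a block these passed, at limma adjusted p of 0.0406, 0.0245 and 0.0318. The difference between the transgene effects was 0.69 (SE 0.181) and lay at the threshold (limma adjusted p = 0.0515). It passed under quantile normalization (0.0353), with array medians centred (0.0293), without dim probe sets (0.0473), with the actin block (0.00403) and without BDC2.5/NOD.scid replicate 2 (0.00805). Without BDC2.5/NOD.scid replicate 1 the transgene in NOD.scid passed at -0.60 (limma adjusted p = 0.013), and without its replicate 2 scid with the transgene passed at 0.52 (0.0305).

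The dimmer Lpl probe set read 4.54 and 3.98 for NOD, 3.35 and 3.22 for BDC2.5/NOD, 3.32 and 3.94 for BDC2.5/NOD.scid and 4.31 and 3.67 for NOD.scid. Its arrays spread widely within groups, and NOD and BDC2.5/NOD alone did not overlap among the pairs compared. The transgene effect in NOD was -0.97 (SE 0.235, limma adjusted p = 0.0251), the same direction as on the brighter probe set. It was lost without either BDC2.5/NOD array (0.135 and 0.176) and without NOD replicate 1 (-0.69, limma adjusted p = 0.2). On each of the 3 arrays of high actin control this probe set read higher than on the other array of its pair. With the actin split as a block its transgene effect in NOD.scid, at -0.36, passed (limma adjusted p = 0.0247).

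Fabp4 encodes the fatty acid binding protein of fat cells, which macrophages and capillary endothelium also make. It read 3.72 and 3.68 for NOD, 3.59 and 3.71 for BDC2.5/NOD, 3.63 and 4.0 for BDC2.5/NOD.scid and 3.53 and 3.40 for NOD.scid. All 8 values lay below 4.27, the median over the probe sets tested. The deposited values carry no detection calls, so a level above background is not shown. The largest pairwise difference was 0.35 with the transgene in NOD.scid (SE 0.124, 95% interval 0.08 to 0.62, limma adjusted p = 0.147). It passed without BDC2.5/NOD.scid replicate 1 (0.53, limma adjusted p = 0.0315) and with the actin split as a block (0.35, 0.0474). Fabp4 and Adipoq had different orders of groups. Over the 8 arrays their correlation was -0.09, while that of Adipoq with Lpl was 0.82 on the brighter probe set and 0.44 on the dimmer. These correlations are descriptions over arrays that share groups and processing.

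Of 27 further fat cell genes measured out of 32 listed, 1 fell and none rose on its brightest probe set with the transgene in NOD. That share is near the 4.06% of all probe sets called lower (3.91% were called higher) and does not set the list apart. The median difference was 0.09, against 0.03 for all probe sets. The gene that fell was Rbp4, the plasma carrier of retinol, at -0.41 (SE 0.0985, limma adjusted p = 0.0233), and that call was lost without either NOD array or either BDC2.5/NOD array, with limma adjusted p of up to 0.201 over its alternatives. Pparg, the master regulator of fat cell formation, read 2.69 to 3.11 on the 8 arrays. The fatty acid transporter Cd36 read 2.59 to 3.06 on its brighter probe set, Lipe, the hormone-sensitive lipase, 4.02 to 4.53, Cebpa, a partner of Pparg, 6.14 to 6.53, and the hormone Lep 6.80 to 7.32. Whether these values exceed background was not tested. The differences that did not pass with the transgene in NOD lay on both sides of 0. They were -0.58 for Car3, -0.32 for the secreted chemerin Rarres2 (limma adjusted p = 0.0728), -0.30 for the lipase Mgll and -0.21 for the caveolar protein Cav1, and 0.35 for Cebpb, 0.21 for the lipase Pnpla2, 0.20 for Lipe and 0.16 for Cebpa. Angptl4, an inhibitor of lipoprotein lipase, had 4 probe sets that differed among themselves. Its brightest was at 0.03, and its dimmest, at 2.70 to 3.26, passed at 0.43 (limma adjusted p = 0.0177), with transgene effects that differed by -0.53 (0.0493). For scid with the transgene, that dimmest probe set of Angptl4 was at -0.39 and another at 0.43, and both passed.

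Car3, a carbonic anhydrase abundant in fat cells and slow muscle, was lower with scid. It read 5.33 and 5.88 for NOD, 5.03 and 5.03 for BDC2.5/NOD, 4.49 and 4.10 for BDC2.5/NOD.scid and 4.69 and 4.64 for NOD.scid. Scid gave -0.94 without the transgene (SE 0.165, limma adjusted p = 0.0108) and -0.73 with it (limma adjusted p = 0.0162). The transgene in NOD gave -0.58 and did not pass (limma adjusted p = 0.0524). Car3 was the only further fat cell gene called for scid without the transgene. The call of Car3 for scid without the transgene was lost without NOD replicate 2 or NOD.scid replicate 2 (limma adjusted p = 0.0909 and 0.0883). That with the transgene was lost without either BDC2.5/NOD array or BDC2.5/NOD.scid replicate 2 (0.12, 0.127 and 0.141). None of 11 skeletal muscle genes was called in any comparison, against 2.35% to 8.35% of all probe sets. That count is near those shares and does not set the list apart. The mean log2 value of the 11 was 4.14 to 4.29 on every array. The muscle list held no troponin or myosin of slow fibres, and the part of slow muscle in Car3 was not tested. None of 7 brown fat genes was called either, against the same shares of all probe sets, with Ucp1, the uncoupling protein, at 3.29 to 3.85.

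In NOD.scid, 5 of the 27 fat cell genes rose and 1 fell with the transgene, and the median was 0.09. Over all probe sets 2.37% were called higher and 4.03% lower. Cebpb, a transcription factor of early fat cell formation and of inflammation, had a log2 difference of 1.26 (SE 0.128, limma adjusted p = 5.47e-05), with 5.20 and 5.49 for BDC2.5/NOD.scid against 4.23 and 3.93 for NOD.scid. Cebpd, its relative, was at 0.85, the phosphatidate phosphatase Lpin1 at 0.61, the droplet coat protein Plin2 at 0.56 and the apolipoprotein Apoc1 at 0.51. Rbp4 fell by 0.60. Macrophage markers moved in the same comparison. Of 14, 7 rose and none fell, against the same shares of all probe sets. The summed log2 value of the 14 was 77.7 to 79.7 in BDC2.5/NOD.scid and 66.1 to 68.7 in NOD. It was 67.1 to 67.7 in BDC2.5/NOD and 68.1 to 69.2 in NOD.scid. C1qb was not called on its brightest probe set. Its other probe set read 6.11 and 5.82 for BDC2.5/NOD.scid against 4.37 and 4.61 for NOD.scid. Cd68 was called on its brightest probe set, and its dim other one had a mean of 2.48 in both groups. The part of macrophages in the rise of Cebpb, Cebpd, Lpin1, Plin2 and Apoc1 was not tested. Leaving out BDC2.5/NOD.scid replicate 2 ended the calls of Cebpd (limma adjusted p = 0.0618) and Lpin1 (0.0838), those of Plin2 and Apoc1 were lost without BDC2.5/NOD.scid replicate 1 or NOD.scid replicate 1, and that of Apoc1 also without BDC2.5/NOD.scid replicate 2 (0.106).

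**Figure D2:**
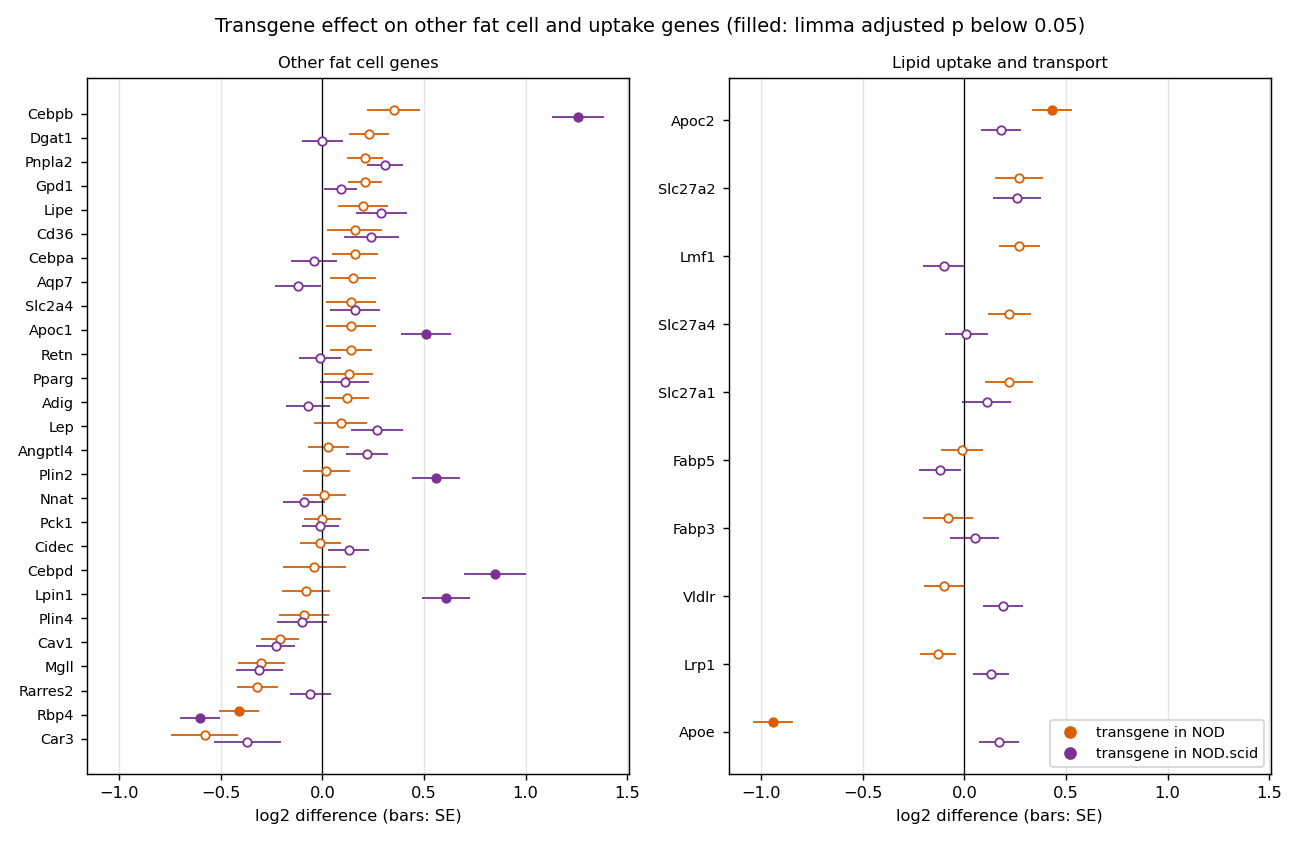
Log2 differences made by the transgene in NOD and in NOD.scid for 27 other fat cell genes (left) and 10 genes of lipid uptake and transport (right), with bars for the SE and filled points where the limma adjusted p lay below 0.05. Cebpb and Cebpd stand to the right in NOD.scid, at 1.26 and 0.85, and Apoe to the left in NOD, at -0.94.

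Markers of other cells were called beside Adipoq and Lpl with the transgene in NOD. Of 9 fibroblast markers, a class that includes fat cell precursors, 7 fell and none rose on their brightest probe sets. Over all probe sets 4.06% were called lower and 3.91% higher. The summed log2 value of these markers was 50.5 to 50.6 in BDC2.5/NOD and 52.7 to 53.3 in BDC2.5/NOD.scid. It was 56.5 to 57.2 in NOD and 55.8 to 56.6 in NOD.scid. The lowest group is that in which Lpl was lowest. Further probe sets of these markers did not all go the same way. A second of Pdgfra read 5.52 and 5.58 for BDC2.5/NOD against 5.15 and 5.42 for NOD. A second of Col1a2 had means of 6.76 for BDC2.5/NOD.scid and 6.62 for NOD.scid, and of 6.32 for BDC2.5/NOD and 6.55 for NOD. Those of Col1a1 and Col3a1 had lower means with the transgene in NOD and in NOD.scid. For scid without the transgene none of these 9 markers was called, against 2.35% of all probe sets, which does not set the list apart. In NOD.scid the transgene lowered 6 of the 9, against 4.03% of all probe sets called lower, while Adipoq and Lpl did not pass. Of 10 endothelial markers, none was called in any of the 5 comparisons, against 2.35% to 8.35% of all probe sets. That count is near those shares and does not set the list apart. The summed log2 value of the 10 was 48.0 to 49.0 on every array. Of 7 islet markers, 5 fell with the transgene in NOD and 4 in NOD.scid, against 4.06% and 4.03% of all probe sets called lower. Of 7 acinar markers, the lipase-related Pnliprp1 fell with the transgene in NOD at -0.52 (SE 0.0793, limma adjusted p = 0.00159) and was higher for scid with the transgene at 0.30 (0.0337), and the other 6 were not called in these comparisons. The part of fibroblasts, islets or acinar cells in the fall of Adipoq and Lpl was not tested.

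Among 10 measured genes of lipid uptake and transport out of 14 listed, Apoe, the ligand by which lipoprotein remnants are taken up, fell by 0.94 with the transgene in NOD (SE 0.0991, limma adjusted p = 0.000127). It read 7.47 and 7.60 for NOD, 6.5 and 6.68 for BDC2.5/NOD, 7.82 and 7.70 for BDC2.5/NOD.scid and 7.66 and 7.53 for NOD.scid. BDC2.5/NOD stood below every other array. A dim second probe set of Apoe was at -0.14 and did not pass. Apoc2, the cofactor that activates lipoprotein lipase, rose by 0.43 (SE 0.0988, limma adjusted p = 0.0194), a call lost without either BDC2.5/NOD array or NOD replicate 1. In NOD.scid none of the 10 was called with the transgene, against 6.4% of all probe sets. Lmf1, a chaperone for the lipase, was lower for scid with the transgene at -0.37 (SE 0.101). That call of Lmf1 was lost under 10 of 17 alternatives, among them array medians centred.

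Fasn encodes fatty acid synthase, the enzyme that builds palmitate. Its log2 values were 6.40 and 6.29 for NOD, 7.11 and 7.10 for BDC2.5/NOD, 5.82 and 5.97 for BDC2.5/NOD.scid and 6.37 and 5.91 for NOD.scid. Both BDC2.5/NOD arrays lay above all others, and NOD.scid overlapped NOD and BDC2.5/NOD.scid. The transgene in NOD gave 0.76 (SE 0.131, 1.69-fold higher, limma adjusted p = 0.0036), and scid with the transgene gave -1.21 (SE 0.131, 2.31-fold lower, limma adjusted p = 0.000114). The transgene in NOD.scid gave -0.24 (95% interval -0.53 to 0.04), and without NOD.scid replicate 2 it was -0.47 and passed (limma adjusted p = 0.0342). The transgene effects in NOD.scid and NOD differed by -1.0 (SE 0.185, limma adjusted p = 0.00889). The call in NOD was lost without BDC2.5/NOD replicate 1 (limma adjusted p = 0.0564), and the difference between effects without either BDC2.5/NOD array (0.0607 and 0.0564), which leaves that group with 1 array. These 3 calls of Fasn use the BDC2.5/NOD pair, whose within-pair SD over probe sets was 0.094, against 0.131 to 0.143 in the other groups. With the pair counted as 1 sample, Fasn gave a limma adjusted p of 0.0539 for the transgene in NOD and 0.0627 for the difference between effects.

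Acly encodes ATP citrate lyase, which supplies acetyl-CoA for fatty acid synthesis. It read 6.78 and 6.94 for NOD, 6.75 and 6.80 for BDC2.5/NOD, 6.60 and 6.38 for BDC2.5/NOD.scid and 6.83 and 6.79 for NOD.scid. BDC2.5/NOD.scid lay below the other 3 groups, which overlapped. Its difference from NOD.scid was -0.32 (SE 0.101, 95% interval -0.54 to -0.10, limma adjusted p = 0.0919) and from BDC2.5/NOD -0.29 (-0.50 to -0.07, limma adjusted p = 0.114). The difference from NOD.scid passed without BDC2.5/NOD.scid replicate 1 (-0.43, limma adjusted p = 0.0411) and with the actin split as a block (-0.32, 0.0219). In NOD, where Fasn rose with the transgene, Acly was at -0.09 with an interval of -0.30 to 0.13.

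Scd1 encodes the desaturase that makes oleate and palmitoleate, and its 3 probe sets did not read alike. The first and brightest read 6.62 and 6.67 for NOD, 6.28 and 6.13 for BDC2.5/NOD, 5.19 and 5.22 for BDC2.5/NOD.scid and 5.48 and 5.54 for NOD.scid. No groups overlapped, and both scid groups lay below both others. Scid gave -1.13 without the transgene (SE 0.0917, 2.2-fold lower, limma adjusted p = 2.01e-05) and -1.0 with it (SE 0.0917, 2.0-fold lower, limma adjusted p = 2.98e-05). Both calls of the first probe set held under every alternative tried. The second probe set of Scd1 read 5.21 and 5.20 for NOD, 4.88 and 4.82 for BDC2.5/NOD, 3.97 and 3.52 for BDC2.5/NOD.scid and 4.23 and 4.22 for NOD.scid. Its order of groups was the same, with -0.98 and -1.1 for scid without and with the transgene (limma adjusted p = 0.00175 and 0.000227), and it correlated with the first at 0.97 over the 8 arrays.

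The transgene effect on Scd1 was smaller on these 2 probe sets. In NOD it was -0.43 on the first (SE 0.0917, limma adjusted p = 0.0127) and -0.36 on the second (limma adjusted p = 0.117). In NOD.scid it was -0.30 (limma adjusted p = 0.0796) and -0.48 (limma adjusted p = 0.0473). With the actin split as a block the first passed in NOD.scid (limma adjusted p = 0.0354) and the second in NOD (0.0327). The calls of the first in NOD and of the second in NOD.scid held under that block. The call of the first in NOD was lost without any 1 of the 4 arrays compared, with limma adjusted p of 0.0551 and 0.154 without the BDC2.5/NOD arrays and 0.0571 and 0.0738 without the NOD arrays. That of the second in NOD.scid was lost without any array other than BDC2.5/NOD.scid replicate 1, and was at -0.26 without BDC2.5/NOD.scid replicate 2. The call that the second missed in NOD was made without either BDC2.5/NOD.scid array (limma adjusted p = 0.0383 and 0.0379). The transgene effects in NOD.scid and NOD differed by 0.13 on the first (95% interval -0.15 to 0.41).

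The third probe set of Scd1 was annotated through another sequence, and its suffix marks probes picked with relaxed rules. It read 5.34 and 5.16 for NOD, 5.92 and 6.01 for BDC2.5/NOD, 5.38 and 5.39 for BDC2.5/NOD.scid and 5.34 and 5.36 for NOD.scid. BDC2.5/NOD alone stood apart, above the rest. The transgene in NOD gave 0.72 (SE 0.0956, limma adjusted p = 0.000735), opposite to the other probe sets of Scd1, while scid without the transgene gave 0.10 (95% interval -0.10 to 0.31). Scid with the transgene gave -0.58 (limma adjusted p = 0.00249), a call lost without BDC2.5/NOD replicate 2 (0.0533). Its transgene effects in NOD.scid and NOD differed by -0.69 (SE 0.135, limma adjusted p = 0.0123), a call lost without either BDC2.5/NOD array (0.058 and 0.0873) and without NOD replicate 2 (0.0502). Over the 8 arrays it correlated with Fasn at 0.82 and with the first at 0.14. When the 3 probe sets of Scd1 were averaged, the transgene in NOD gave -0.02 and was not called, and scid without the transgene gave -0.67 and was. The direction for Scd1 with the transgene in NOD therefore depends on the probe set, and which of them reads the transcript best was not tested.

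**Figure D3:**
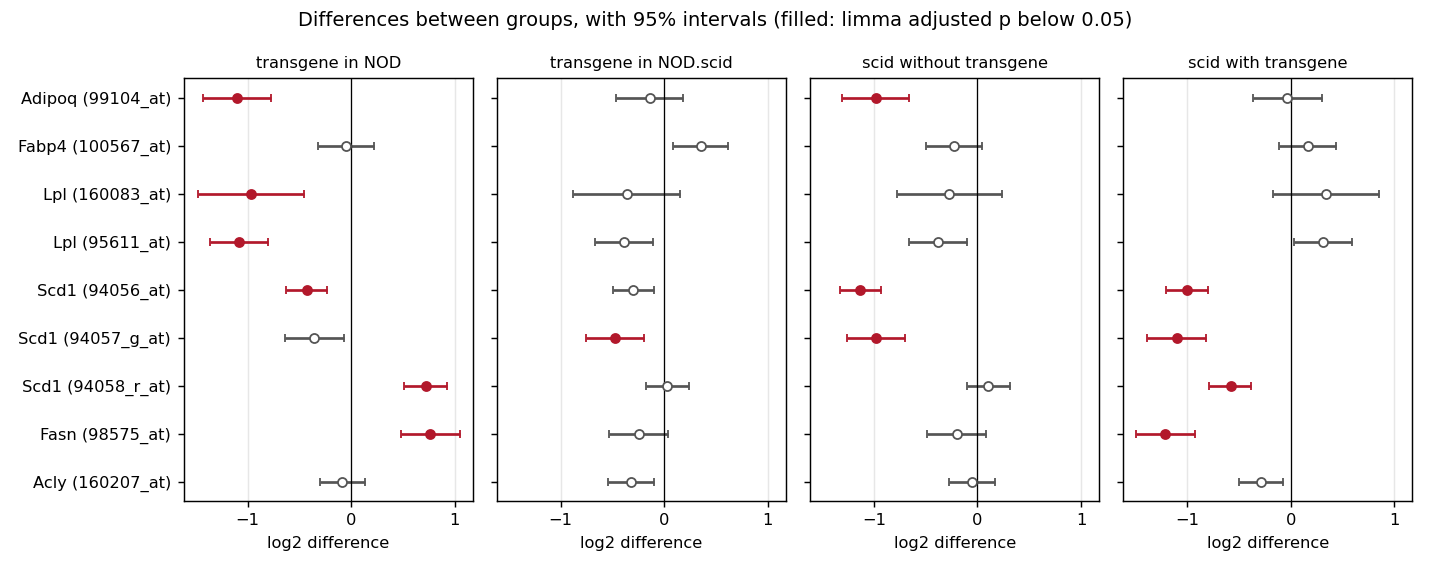
Log2 differences for the 9 probe sets in the 4 pairwise comparisons, with bars for 95% intervals and filled red points where the limma adjusted p lay below 0.05. Fasn and the third probe set of Scd1 lie to the right of 0 with the transgene in NOD, at 0.76 and 0.72, while Adipoq and both Lpl probe sets lie to the left, at -1.1, -0.97 and -1.08.

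Some genes of cholesterol synthesis rose where Fasn rose. Of 14 measured out of 21 listed, 4 rose and none fell with the transgene in NOD. Over all probe sets 3.91% were called higher and 4.06% lower. The median of the 14 was 0.21, against 0.03 for all probe sets. None was called with the transgene in NOD.scid, against 6.4% of all probe sets, and the median of the 14 there was -0.07. Fdps, which makes farnesyl diphosphate, read 5.69 and 5.62 for NOD, 6.62 and 6.67 for BDC2.5/NOD, 5.68 and 5.52 for BDC2.5/NOD.scid and 6.05 and 5.81 for NOD.scid. Its transgene effect in NOD was 0.99 (SE 0.105, limma adjusted p = 0.000133), with a second probe set at 0.66 that passed and dim ones at 0.19 and 0.09 that did not. Idi1, the isopentenyl diphosphate isomerase, rose from 3.53 and 3.64 to 4.38 and 4.47, a difference of 0.84 (SE 0.113), and Mvd, the mevalonate decarboxylase, from 5.46 and 5.38 to 6.18 and 6.23, a difference of 0.78 (SE 0.104). These calls of Fdps, Idi1 and Mvd held under all 17 alternatives. Cyp51, the lanosterol demethylase, was at 0.37 (limma adjusted p = 0.0437) and lost its call under 10 of 17, each of the 4 arrays compared left out among them.

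The transgene effects in NOD.scid and NOD differed for Fdps by -1.32 (SE 0.148, limma adjusted p = 0.000229), for Idi1 by -0.85, for Mvd by -0.86 and for Cyp51 by -0.62. For scid with the transgene the same 4 genes and Ebp, the sterol isomerase, were lower, against 5.35% of all probe sets called lower. They lay at -1.04 for Fdps to -0.40 for Ebp, whose call was lost under 9 of 17 alternatives. For scid without the transgene none of the 14 was called, against 2.35% of all probe sets. All of the called comparisons use the BDC2.5/NOD arrays. Of 3 probe sets of Nsdhl, a sterol dehydrogenase, 1 passed with the transgene in NOD at 0.44 (limma adjusted p = 0.0405), and the others, at 0.18 and 0.13, did not. Sqle, Lss, Hmgcs1 and Fdft1, further enzymes of the same pathway, lay between -0.10 and 0.27 with the transgene in NOD and did not pass.

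Of 12 measured genes of fatty acid synthesis out of 23 listed, 3 rose and 1 fell with the transgene in NOD. Over all probe sets 3.91% were called higher and 4.06% lower. The median of the 12 was 0.12. Slc25a1, the carrier that exports citrate from mitochondria, rose by 0.44 (SE 0.0891, limma adjusted p = 0.0102), Thrsp, a lipogenic regulator, by 0.38 (limma adjusted p = 0.0417) and Fads1, a desaturase of polyunsaturated fatty acids, by 0.36 (limma adjusted p = 0.0437). Gpam, the first acyltransferase of triglyceride synthesis, fell by 0.54 (SE 0.0955, limma adjusted p = 0.00406). Srebf1, which encodes the regulator of the pathway, was at 0.27 (limma adjusted p = 0.0724) and did not pass. Me1, the malic enzyme that supplies NADPH, at -0.28, and the elongase Elovl6, at -0.04, did not pass either. Scd2, the desaturase of brain and immature fat cells, was at 0.14 on its brighter probe set and at 0.47 on the other, which passed (limma adjusted p = 0.0103). In NOD.scid none of the 12 was called, against 6.4% of all probe sets. A second probe set of Slc25a1 was at 0.33 and did not pass. The calls of Thrsp and Fads1 were lost without any 1 of the 4 arrays compared and under quantile normalization, and that of Slc25a1 without either BDC2.5/NOD array or NOD replicate 1. That of Gpam was lost without BDC2.5/NOD replicate 2 (limma adjusted p = 0.0747).

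**Figure D4:**
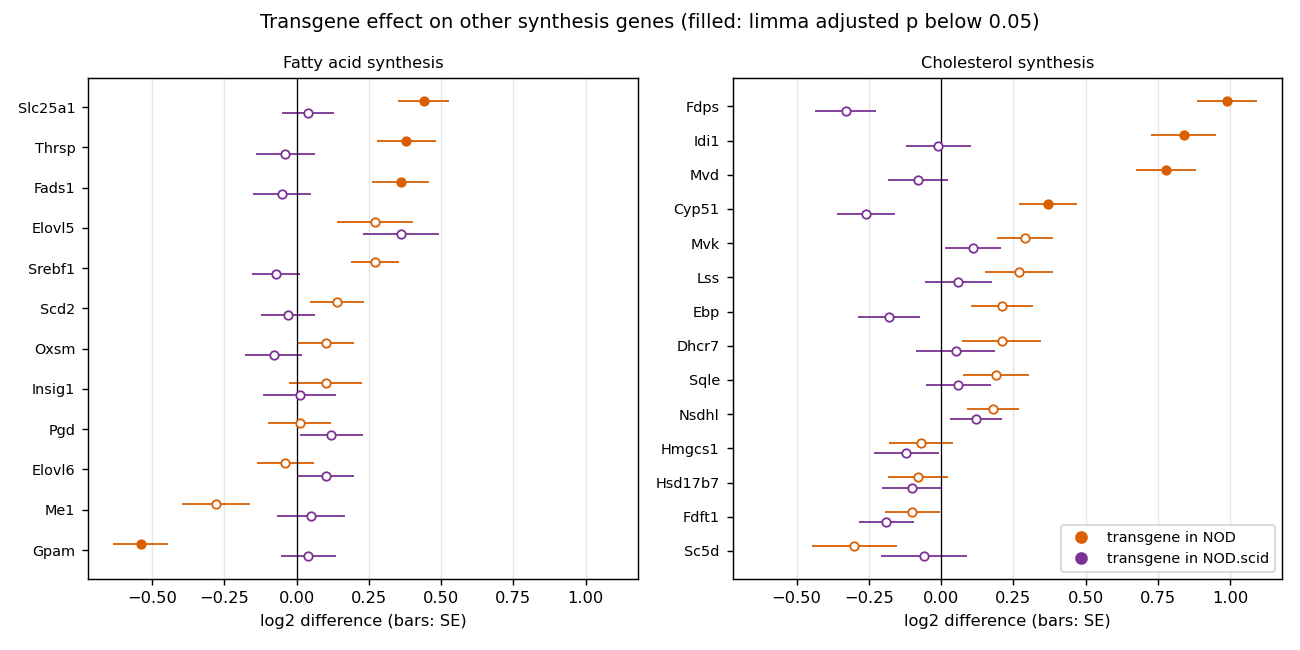
Log2 differences made by the transgene in NOD and in NOD.scid for 12 other genes of fatty acid synthesis (left) and 14 of cholesterol synthesis (right), with bars for the SE and filled points where the limma adjusted p lay below 0.05. Fdps, Idi1 and Mvd lie at 0.99, 0.84 and 0.78 with the transgene in NOD and at -0.33, -0.01 and -0.08 in NOD.scid.

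Promoters are shown as a description of sequence, and their part in the values of Fasn, Acly, Adipoq or the sterol genes was not tested. RefSeq windows on GRCm38.p6 were in the table used for Adipoq, Fasn, Acly and Cfd, and the 250 bases before the start site are printed 5′ to 3′ for the 3 of these that were measured. Capitals mark matches, on either strand, to CCAAT, the box bound by NF-Y, and to GGGCGG, the box bound by Sp1, both known partners of sterol regulatory element binding proteins. The windows are chr11:120824548-120824797 on the minus strand for Fasn, chr11:100528001-100528250 on the minus strand for Acly and chr16:23146286-23146535 on the plus strand for Adipoq.
Fasn: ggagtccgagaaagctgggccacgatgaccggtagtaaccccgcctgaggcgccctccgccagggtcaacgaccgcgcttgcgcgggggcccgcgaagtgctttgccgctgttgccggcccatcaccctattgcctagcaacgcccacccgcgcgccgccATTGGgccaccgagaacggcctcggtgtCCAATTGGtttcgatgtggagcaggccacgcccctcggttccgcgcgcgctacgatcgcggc
Acly: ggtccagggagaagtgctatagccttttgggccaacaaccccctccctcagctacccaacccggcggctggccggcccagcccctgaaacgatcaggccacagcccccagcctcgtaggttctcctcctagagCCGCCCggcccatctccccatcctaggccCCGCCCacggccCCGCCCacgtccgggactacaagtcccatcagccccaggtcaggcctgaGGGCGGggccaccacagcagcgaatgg
Adipoq: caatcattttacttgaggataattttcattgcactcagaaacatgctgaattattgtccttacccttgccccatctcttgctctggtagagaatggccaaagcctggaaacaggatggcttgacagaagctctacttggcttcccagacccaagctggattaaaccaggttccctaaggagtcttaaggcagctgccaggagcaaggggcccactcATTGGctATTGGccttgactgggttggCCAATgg

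The window of Fasn held 3 matches to CCAAT, of which 2 overlap on opposite strands, and 0 to GGGCGG. That of Acly held 0 and 4, and that of Adipoq 3 and 0. Over 32536 distinct promoter windows of the same length, CCAAT was in 33.8% and GGGCGG in 33.0%. Of the other synthesis genes with a window, CCAAT was in 5 of 5 that rose with the transgene in NOD (Cyp51, Idi1, Mvd, Slc25a1 and Thrsp) and in 14 of 16 that did not. GGGCGG was in 4 of 5 and in 14 of 16. A gene was counted once if any of its start sites matched, and genes had up to 3, so these shares are not on the scale of the shares per window. The exact letters of the sterol response element known from the low density lipoprotein receptor gene were in 0 of 5 and 0 of 16. They were in none of the windows of Fasn, Acly and Adipoq, and in 0.0738% of all windows. Variants of these letters were not searched for, so the presence of sterol elements spelled differently was not tested in any window. A match is a description of the letters and not a site of binding.

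Genes whose values most resembled those of a member over the 8 arrays were taken from 290 genes with a mean above 4.27 and a range of at least 1. For Adipoq these were Hnrnph1, Erdr1 and Rsrp1, at Pearson correlations of 0.928, 0.905 and 0.898. For the brighter Lpl probe set they were Itm2a, C330007P06Rik and Aldh1a1, at 0.977, 0.961 and 0.960. For the first probe set of Scd1 they were Cggbp1, Car3 and Yipf5, at 0.935, 0.926 and 0.879, and for Fasn Ints3, Psat1 and Ctse, at 0.970, 0.947 and 0.946. For Acly they were Gpn1, Tfdp1 and Itga6, at 0.990, 0.907 and 0.902, and for Fabp4 Cebpd, Usp2 and Lifr, at 0.894, 0.847 and 0.821. Acly and Fabp4 ranged over only 0.57 and 0.60 on the log2 scale. These are descriptions over 8 arrays that share groups and processing, and the highest of many correlations is high by selection.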

How the data were processed

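The authors deposited processed values per probe set, taken here as log2 because they reached 13.78, with array medians of 4.24 to 4.30. The sources used here give neither the normalization nor the probe summary, so values were used as deposited, with no scaling added. After removal of 66 control probe sets from 12488, the platform annotation named 10833 by 1 symbol and 396 by several, and left 1193 unnamed. Gene identifiers matched RefSeq (GRCm38.p6) for 10817, and 0 symbols changed. Where a gene had several probe sets, the brightest stood for it.

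limma 3.58.1 (R 4.3.3) was run on all 8 arrays with a mean per group and a variance trend, leaving 4 residual degrees of freedom beside 8.07 from the prior. Adjusted p-values are Benjamini-Hochberg values over all 12422 probe sets, two-sided, with a threshold of 0.05. All 9 member probe sets passed the filter tried on dim ones. The number of arrays limits the precision. Members and the 11 other lists were chosen with earlier results of these data known. Named genes were the members, a fixed set (such as Pparg, Car3 and Srebf1) and up to 4 genes per list and comparison with the smallest adjusted p. Apoc1, Ebp, Sqle, Lss, Hmgcs1, Fdft1, Lep, Rarres2, Mgll, Cav1, Pnpla2, Angptl4, Nsdhl, C1qb and Cd68 were named after their values were seen. In 5 simulations of the transgene in NOD.scid over 12422 probe sets with 200 changed, limma recovered 78.4% of log2 changes of 0.5 and 100% of those of 1, 2 or 3, with 7.44% of calls false. The simulated noise was normal and independent, with the spread that the same fit gave each probe set, equal in every group. That spread is between arrays and may be technical, so the recovery does not describe differences between animals. Alternatives covered normalization, centring, dim probe sets, the variance trend, blocks, fewer arrays, probe set averaging and the threshold. Tables and plots were made with pandas 2.3.3 and matplotlib 3.10.9.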

Additional observations from a re-analysis of the deposited data

Results flagged for a closer look

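For these genes the transgene effect in NOD.scid differed from that in NOD by limma's test of the difference itself (adjusted p below 0.05), and all of them use the BDC2.5/NOD pair.

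Among the members, the difference (effect in NOD.scid minus effect in NOD, log2) was 0.95 for Adipoq, from effects of -0.14 and -1.1, -1.0 for Fasn, from -0.24 and 0.76, and -0.69 for the third probe set of Scd1 (in the order of the report), from 0.03 and 0.72. Among other fat cell genes it was 0.91 for Cebpb, 0.89 for Cebpd and 0.69 for Lpin1, whose effects were 1.26, 0.85 and 0.61 in NOD.scid and 0.35, -0.04 and -0.08 in NOD. Gpam, at -0.54 in NOD and 0.04 in NOD.scid, had a difference of 0.59, and Apoe, at -0.94 in NOD and 0.17 in NOD.scid, one of 1.11. In cholesterol synthesis the difference was -1.32 for Fdps, -0.85 for Idi1, -0.86 for Mvd and -0.62 for Cyp51. The differences for Fdps, Mvd and Apoe held under all 16 alternatives, and each of the others lost its call under at least 3.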

How the results depend on the processing

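Of 17 member values past the threshold, 8 kept their call under every alternative tried, and of 28 that did not pass, 18 did so throughout. No call changed direction. Of 9 member probe sets, the number called with the transgene in NOD.scid was 1; it was 0 with only the 4 arrays compared, 0 with the replicate block, 6 with the actin control as a block, 0 with the BDC2.5/NOD arrays as 1 sample and 0 at a threshold of 0.01, and ranged from 0 to 4 with 1 array left out. With the transgene in NOD it was 6, and 3 with the BDC2.5/NOD arrays as 1 sample, and ranged from 3 to 7 with 1 array left out. For the difference between transgene effects it was 3, and 0 with the BDC2.5/NOD arrays as 1 sample and 1 at a threshold of 0.01, and ranged from 0 to 4 with 1 array left out. For scid without the transgene (3) and with it (4) no alternative moved the number by over 1.5 times.

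The number in a title did not pair arrays: deviations of the arrays numbered 1 correlated between groups at -0.32 to 0.29. The replicate block gave 647 calls over all probe sets with the transgene in NOD.scid, against 795, and 195 for scid without the transgene, against 292. Over all probe sets the 795 calls became 445 without BDC2.5/NOD.scid replicate 2 and 1315 with the actin block. The 990 with the transgene in NOD became 278 with the BDC2.5/NOD arrays as 1 sample and 1521 with only the 4 arrays compared, and its 486 higher and 504 lower became 408 and 640 with array medians centred. The 292 for scid without the transgene became 71 without NOD replicate 2 and 739 with the actin block. The 1037 for scid with the transgene became 311 with the BDC2.5/NOD arrays as 1 sample, and the 586 for the difference between effects became 195 without BDC2.5/NOD replicate 1 and 1042 with the actin block. The cause was not tested.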
